A study of Arabidopsis thaliana with 8 samples.

Results

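In whole Arabidopsis thaliana seedlings, 10 genes of jacalin-related lectins were followed, out of 33557 genes with values. They are the 9 lectin genes that lie side by side on chromosome 3 (NSP3, NSP1, NSP4, PBP1, PBP2, JAL32, JAL33, JAL34 and JAL35) and JAL22 on chromosome 2, chosen by locus code. The choice was made with their levels in all 4 genotypes known, so those levels and the differences between genotypes are given as a description, with no p-value. Which of the 10 pass a threshold over all genes is stated as a description too. All 10 had a mean of at least 1 FPKM (a unit of fragments corrected for the gene's length and the library's size) and so passed the filter on low values that 19017 genes passed.

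RNA was taken from seedlings 7 days old, grown on plates with a long light period. The wild type was Col-0, dek3-2 and dek4-2 were single mutants of DEK3 and DEK4, and dd-2 carried both alleles. DEK3 and DEK4 are chromatin proteins of the DEK family, and the kind of mutation in each allele is not given in the sources used here. Each genotype had 2 libraries, named biological replicates in the labels, with nothing stated on separate cultures or plates, so errors measure the spread between these libraries. Genes of green leaf and of root, used as markers, were detected in every library.

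Jacalin-related lectins are carbohydrate-binding proteins built from jacalin domains. In Arabidopsis several of them belong to a defence system of the Brassicaceae. Myrosinases and related beta-glucosidases such as PYK10 split glucosinolates when tissue is damaged, specifier proteins steer which products form, and lectins such as PBP1 bind PYK10, which is stored in bodies derived from the endoplasmic reticulum (ER bodies) that are abundant in seedlings and roots.

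Summed over all genes, FPKM came to between 839267 and 873796 a library, 18504 to 19283 genes reached 1 FPKM, and 1 FPKM on 1 kb stood for 24.5 to 34.4 fragments. DEK3 lay at 47.4 to 80.7 FPKM in the libraries without dek3-2 and at 13.3 to 19.9 FPKM in those with it. DEK4 lay at 23.7 to 37.95 FPKM without dek4-2 and at 10.3 to 18.4 FPKM with it. The ranges did not overlap, and reads of each gene were still present in its mutants. The chloroplast genome held 1.19 to 1.43% of the FPKM in libraries numbered 1 and 1.79 to 1.87% in those numbered 2. Transcripts of 9 seed genes (storage proteins and oleosins, none of them at 0 in any library) summed to 1781 FPKM in dek3-2 replicate 1 and 123 FPKM in dd-2 replicate 2, against 2.84 to 19.7 FPKM in the other 6 libraries. The lectin differences without both libraries are given beside those with them.

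The chromosome 3 genes fill a stretch of 36.7 kb, from 5562571 to 5599224 in TAIR10 coordinates counted from 1. Of 11 loci inside it 9 are the lectin genes, 8 on the plus strand and JAL35, at the upper end, on the minus strand. The other loci were AT3G16415, at 0.154 to 0.380 FPKM, and AT3G16432, listed at 0 in every library. Gaps between neighbouring lectin genes ran from 211 bp (JAL34 and JAL35, facing each other) to 4844 bp (NSP4 and PBP1). In the RefSeq models JAL34 and JAL35 overlap by 631 bp at their ends. The library kit kept strand but the sources do not say that counting used it, so the values of these genes are uncertain to that extent.

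Levels are given first for the specifier proteins, then for the PYK10-binding lectins, the remaining lectins of the cluster and JAL22. Over the 8 libraries the genes fell into 7 abundant ones, averaging 10 FPKM or more, and 3 low ones, NSP3, NSP4 and JAL32, which reached at most 3.26 FPKM.

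**Figure D1:**
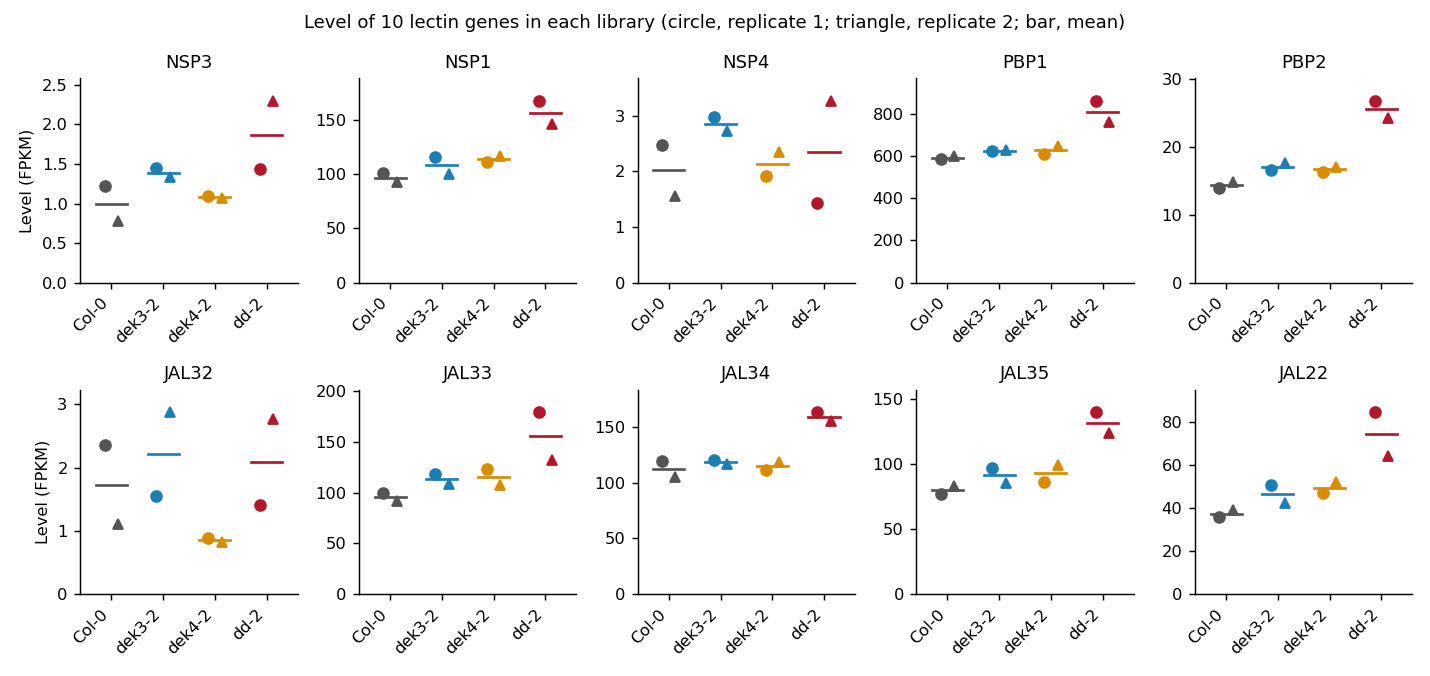
Level in FPKM (y axis, starting at 0 and scaled for each gene) of the 10 lectin genes in the 8 libraries, by genotype (x axis); circles are replicate 1, triangles replicate 2 and bars group means. In 7 panels both dd-2 points lie above the other 6, as for PBP1, at 762 and 861 FPKM against 587 to 647, while the points of NSP3, NSP4 and JAL32 overlap.

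NSP1, NSP3 and NSP4 encode nitrile-specifier proteins, which join jacalin domains to a kelch part and direct glucosinolate breakdown towards nitriles. NSP1 (AT3G16400, chromosome 3, 5566086 to 5568545, plus strand) and NSP4 (AT3G16410, chromosome 3, 5571992 to 5574541, plus strand) are the most alike in coding sequence, with 95.0% identical bases and an unbroken identical run of 366 bp. The sequences before their starts are shown because these near-copies differed widely in level. Each is the window of 250 bases before the RefSeq gene start (TAIR10.1, plus strand), and capitals mark any match, on either strand, to CACGTG (the G-box of basic helix-loop-helix factors), to CATGTG (another E-box), to TTGAC (the core of the W-box of WRKY factors) or to TATAAA (found near many transcription starts).

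NSP1: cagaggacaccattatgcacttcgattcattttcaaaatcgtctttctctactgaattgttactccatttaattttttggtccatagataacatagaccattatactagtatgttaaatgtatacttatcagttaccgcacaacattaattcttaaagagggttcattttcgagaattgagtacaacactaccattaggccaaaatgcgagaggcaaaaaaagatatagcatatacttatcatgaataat
NSP4: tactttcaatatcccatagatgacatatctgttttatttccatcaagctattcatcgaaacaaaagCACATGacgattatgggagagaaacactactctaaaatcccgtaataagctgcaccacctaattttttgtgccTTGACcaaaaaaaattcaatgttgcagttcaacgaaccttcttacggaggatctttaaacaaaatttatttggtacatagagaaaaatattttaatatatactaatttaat

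The NSP1 window, at chr3:5565833-5566082, held none of the 4 motifs. The NSP4 window, at chr3:5571653-5571902, held CACATG and TTGAC. Aligned to each other the windows shared 59.6% of 225 aligned bases.

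NSP1 stood at 102 and 92.6 FPKM in the Col-0 libraries, 117 and 100.3 in dek3-2, 112 and 117 in dek4-2 and 168 and 147 in dd-2. Both dd-2 libraries lay above the other 6, the dek4-2 libraries lay above those of Col-0, and dek3-2 overlapped Col-0. On the log2(FPKM + 1) scale the fitted difference from Col-0 was 0.69 ± 0.10 (SE, n = 2 libraries a genotype) in dd-2, 0.24 ± 0.10 in dek4-2 and 0.16 ± 0.10 in dek3-2.

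NSP4 was far lower, at 2.48 and 1.56 FPKM in Col-0, 2.97 and 2.73 in dek3-2, 1.91 and 2.34 in dek4-2 and 1.43 and 3.26 in dd-2. Its dd-2 libraries were the lowest and the highest of all 8. The difference of dd-2 from Col-0 was 0.11 ± 0.26 on the log2 scale, and it ran from -0.29 to 0.52 with 1 library left out. NSP3 (AT3G16390, chromosome 3, 5562571 to 5564571, plus strand) stood at 1.22 and 0.77 FPKM in Col-0, 1.45 and 1.34 in dek3-2, 1.10 and 1.07 in dek4-2 and 1.44 and 2.30 in dd-2. Its dd-2 libraries lay above those of Col-0 and overlapped those of dek3-2. The NSP3 difference of dd-2 from Col-0 was 0.52 ± 0.19, and it was 0.30 without dd-2 replicate 2 and 0.73 without dd-2 replicate 1. NSP3 shared 92.2% of its coding bases with NSP1 and 90.8% with NSP4, so fragments may have been split or lost between these genes. With the lengths and levels of NSP1 and NSP4 summed, the difference of dd-2 from Col-0 was 0.67.

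PBP1 (PYK10-binding protein 1, AT3G16420, chromosome 3, 5579386 to 5580953, plus strand) and PBP2 (JAL31, AT3G16430, chromosome 3, 5581663 to 5583187, plus strand) are neighbours with 89.0% identical coding bases. Their windows of 250 bases before the start, at chr3:5579040-5579289 and chr3:5581318-5581567 (TAIR10.1, plus strand), are shown because they were the most alike of all pairs among the 10 genes while the levels lay far apart. Capitals mark the same motifs as above.

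PBP1: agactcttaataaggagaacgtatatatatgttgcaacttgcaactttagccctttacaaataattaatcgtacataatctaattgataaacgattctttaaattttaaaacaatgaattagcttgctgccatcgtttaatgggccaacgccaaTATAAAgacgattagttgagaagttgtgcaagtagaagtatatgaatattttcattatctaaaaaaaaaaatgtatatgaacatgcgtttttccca
PBP2: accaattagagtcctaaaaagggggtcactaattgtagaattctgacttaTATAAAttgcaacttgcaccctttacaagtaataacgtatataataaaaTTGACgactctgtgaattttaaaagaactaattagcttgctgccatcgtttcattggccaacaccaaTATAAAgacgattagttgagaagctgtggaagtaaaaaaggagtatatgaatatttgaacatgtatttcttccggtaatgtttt

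They shared 84.3% of 217 aligned bases, which was 73.2% of the window, and the next pair, NSP1 and JAL32, reached 58.8% of the window. The longest shared run had 27 bases, beginning 100 bases before the start of PBP1 and 88 bases before that of PBP2. It contained TATAAA, whose first base lay 96 and 84 bases before the start. PBP2 held a second TATAAA, 200 bases before its start, and a TTGAC, 151 bases before it, which PBP1 lacked.

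PBP1 was the most abundant of the 10 genes in every library. It stood at 587 and 599 FPKM in Col-0, 623 and 627 in dek3-2, 612 and 647 in dek4-2 and 861 and 762 in dd-2. The dd-2 libraries were highest, and all 4 single-mutant libraries lay above both of Col-0 by a small margin. The difference from Col-0 was 0.45 ± 0.09 in dd-2, 0.08 ± 0.09 in dek3-2 and 0.08 ± 0.09 in dek4-2. Among all genes PBP1 ranked 144 to 184 in the other libraries and 98 and 112 in dd-2.

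PBP2 stood at 13.90 and 14.78 FPKM in Col-0, 16.5 and 17.6 in dek3-2, 16.4 and 16.98 in dek4-2 and 26.7 and 24.3 in dd-2. The order was Col-0 below both single mutants, which overlapped each other, and dd-2 above all. The difference from Col-0 was 0.79 ± 0.08 in dd-2, 0.24 ± 0.08 in dek3-2 and 0.20 ± 0.08 in dek4-2. The ratio of PBP1 to PBP2 was 42.2 and 40.6 in Col-0, 37.7 and 35.6 in dek3-2, 37.5 and 38.1 in dek4-2 and 32.2 and 31.4 in dd-2. The ratio was thus lowest in dd-2 and highest in Col-0, without overlap between these and the single mutants. A fragment of PBP1 placed on PBP2, or the reverse, would move this ratio, and this could not be examined without reads. With both genes summed the difference of dd-2 from Col-0 was 0.46.

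JAL33, JAL34 and JAL35 are lectins made of jacalin domains alone. JAL33 (AT3G16450, chromosome 3, 5588394 to 5590055, plus strand) stood at 99.2 and 91.4 FPKM in Col-0, 119 and 109 in dek3-2, 123 and 107 in dek4-2 and 179 and 133 in dd-2. The dd-2 libraries were the highest but lay far apart, and the difference from Col-0 was 0.69 ± 0.14. Leaving out 1 library at a time gave 0.47 to 0.91.

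JAL34 (AT3G16460, chromosome 3, 5592582 to 5595717, plus strand) stood at 119.7 and 105.0 FPKM in Col-0, 120.1 and 117 in dek3-2, 112 and 118 in dek4-2 and 163 and 156 in dd-2. Col-0 and both single mutants overlapped, and the dd-2 libraries lay above all of them. The differences from Col-0 were 0.50 ± 0.08 in dd-2, 0.08 ± 0.08 in dek3-2 and 0.04 ± 0.08 in dek4-2.

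JAL35 (AT3G16470, chromosome 3, 5595929 to 5599224, minus strand) is also known as JR1, a jasmonate-responsive gene. It stood at 76.95 and 83.3 FPKM in Col-0, 97.1 and 85.8 in dek3-2, 86.3 and 99.4 in dek4-2 and 139.9 and 124 in dd-2. The single mutants overlapped each other, lay above Col-0 and lay below dd-2. Its difference from Col-0 was 0.71 ± 0.10 in dd-2, 0.19 ± 0.10 in dek3-2 and 0.21 ± 0.10 in dek4-2.

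JAL32 (AT3G16440, chromosome 3, 5585944 to 5587750, plus strand, named in RefSeq as a myrosinase-binding protein-like protein) differed from the abundant lectins of the cluster. Like NSP4, it overlapped Col-0 in dd-2. It stood at 2.35 and 1.11 FPKM in Col-0, 1.56 and 2.87 in dek3-2, 0.88 and 0.82 in dek4-2 and 1.41 and 2.77 in dd-2. Only the dek4-2 libraries separated from the rest, below all other 6, with a difference from Col-0 of -0.52 ± 0.30, while dd-2 was at 0.18 ± 0.30. The former was -0.86 without Col-0 replicate 2 and -0.19 without Col-0 replicate 1, and the latter -0.16 and 0.51. These levels rested on about 27 to 92 fragments a library, against about 22923 to 30378 for PBP1, and JAL32 shares 83.8% of its coding bases with JAL33.

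JAL22 (AT2G39310, chromosome 2, 16414073 to 16416815, minus strand), found in the PYK10 complex, lies outside the cluster. Its window, at chr2:16416846-16417095 (TAIR10.1, minus strand), is shown as that of the gene with the largest difference. The capitals mark TTGAC as its reverse complement, GTCAA, at 6 bases before the start.

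JAL22: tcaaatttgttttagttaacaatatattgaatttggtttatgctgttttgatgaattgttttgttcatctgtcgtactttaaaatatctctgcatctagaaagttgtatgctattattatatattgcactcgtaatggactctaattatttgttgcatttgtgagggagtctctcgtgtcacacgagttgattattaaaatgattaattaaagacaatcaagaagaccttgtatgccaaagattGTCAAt

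JAL22 stood at 35.6 and 38.99 FPKM in Col-0, 50.5 and 42.3 in dek3-2, 46.8 and 51.9 in dek4-2 and 84.3 and 64.0 in dd-2. The single mutants overlapped each other, lay above Col-0 and lay below dd-2. The ratio of mean FPKM of dd-2 to Col-0 was 1.99, and on the log2 scale the differences were 0.96 ± 0.14 in dd-2, 0.30 ± 0.14 in dek3-2 and 0.39 ± 0.14 in dek4-2.

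Across the 10 genes, no window held CACGTG, which 6.49% of 27443 RefSeq promoter windows of this length hold on either strand. CATGTG or CACATG was in 1 of 10 windows (11.1% of all promoters), TTGAC or GTCAA in 6 of 10 (44.9%) and TATAAA or TTTATA in 3 of 10 (47.3%). No printed match overlapped a match of another motif. A match describes letters in these windows and is not a site of binding.

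The order of the 10 genes was nearly the same in every library. PBP1 held rank 1, JAL35 rank 5, JAL22 rank 6 and PBP2 rank 7 in all 8, NSP1, JAL33 and JAL34 exchanged ranks 2 to 4, and the low genes filled ranks 8 to 10. PBP1 alone made up 52.9 to 58.3% of the summed FPKM of the 10 genes. The genotypes had mean sums of 1035 ± 7.95 FPKM for Col-0, 1127 ± 30.2 for dek3-2, 1137 ± 35.2 for dek4-2 and 1522 ± 148 for dd-2 (SD over 2 libraries). As a share of all FPKM it was 0.119 and 0.121% in Col-0, 0.129 to 0.137% in the single mutants and 0.19 and 0.169% in dd-2. In a whole-seedling library fewer cells of a type and less RNA per cell cannot be told apart, and the same holds for more of either.

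In dd-2 against Col-0 both dd-2 libraries lay above both Col-0 libraries for 8 of the 10 genes, while this held for 38% of the 19017 genes tested. NSP4 and JAL32 overlapped. For dek3-2 against Col-0 the count was 7 of 10 (20.9% of genes tested). For dek4-2 against Col-0 it was 6 of 10 higher (12% of genes tested) and 1, JAL32, lower (12.1%). Both dd-2 libraries lay above all 6 others for the 7 abundant genes, and this held for 17.1% of genes tested and for 17.7% of the 11271 genes that averaged 10 FPKM or more. The fitted median over the 10 genes was 0.60 in dd-2 against Col-0, where the median of all genes was 0.08. These counts and medians describe values that entered the choice of genes. The median was 0.24 in dek3-2 (all genes 0.04) and 0.14 in dek4-2 (all genes 0.00). With 1 library left out these were 0.13 (without Col-0 replicate 2) to 0.27 in dek3-2 and 0.09 (without dek4-2 replicate 2) to 0.20 in dek4-2.

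**Figure D2:**
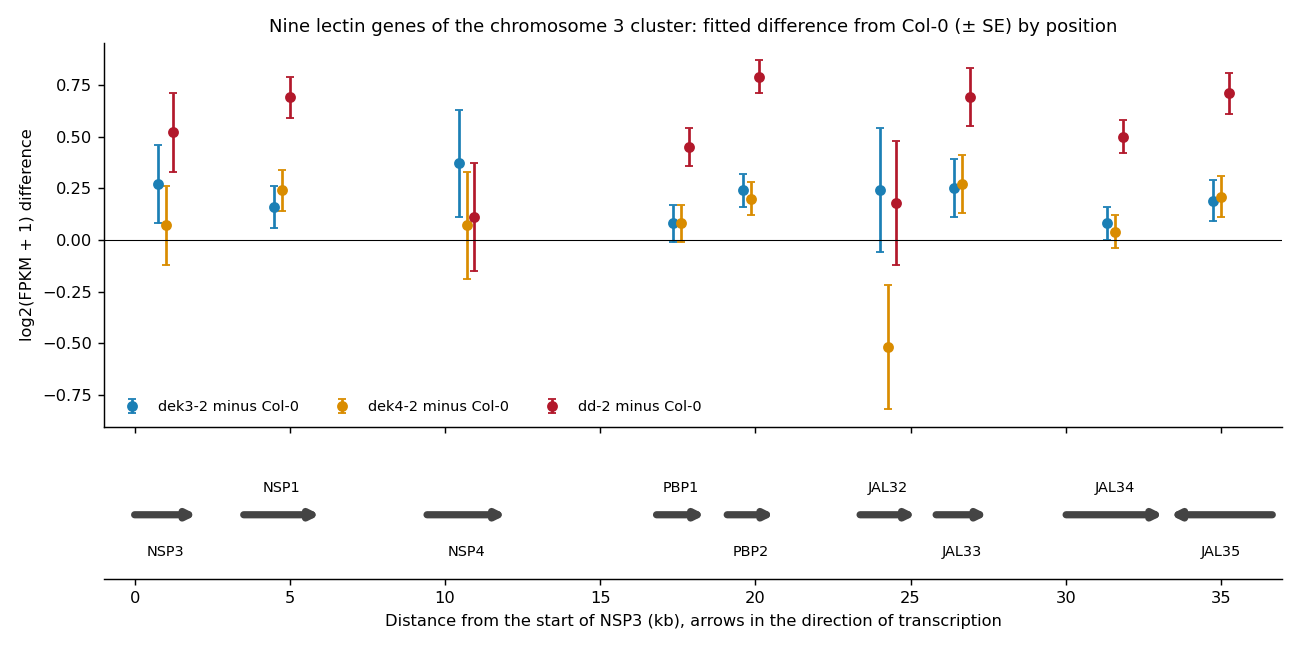
Fitted difference from Col-0 in log2(FPKM + 1) (y axis, ± SE) of the 9 cluster genes at their place along the cluster (x axis, distance from the start of NSP3 in kb), with gene bodies as arrows in the direction of transcription. The dd-2 points of the abundant genes lie between 0.45 and 0.79 along the whole stretch, with NSP4 at 0.11 and JAL32 at 0.18 among them.

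With limma and a Benjamini-Hochberg adjusted p below 0.05 over all genes tested, the dd-2 against Col-0 comparison called 4 of the 10 genes, all higher: NSP1, PBP2, JAL35 and JAL22. The share of all genes called was 0.252% in either direction and 0.142% higher. As the choice of genes used this contrast, nothing is read from the count. It depended on the fit: leaving out any library left 0 or 1 of the 4, a fit on the compared genotypes alone left 0, median-of-ratios scaling left PBP2 alone, leaving out organelle genes gave 5 with JAL34 added, and leaving out dek3-2 replicate 1 and dd-2 replicate 2 together left 0. The dd-2 median over the 10 genes stayed between 0.54 and 0.67 with 1 library left out. None of the 10 was called in dek3-2 against Col-0 (0.0421% of genes called) or dek4-2 against Col-0 (0.021%). None was called in dd-2 against dek3-2 (0.0263%), dd-2 against dek4-2 (0.0421%), dek4-2 against dek3-2 (0.0263%) or the interaction (0.0158%).

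Set against the single mutants, dd-2 was higher for each of the 7 abundant genes, with both dd-2 libraries above both of dek3-2 (27% of genes tested) and both of dek4-2 (32.7%). Their differences ran from 0.37 to 0.66 against dek3-2 and from 0.36 to 0.58 against dek4-2. The single mutants overlapped each other for all 7, at differences of -0.04 to 0.09 for dek4-2 minus dek3-2. The 3 low genes were lower in both dek4-2 libraries than in both dek3-2 libraries (18.8% of genes tested), by -0.20 to -0.76. Comparisons of the mutants with Col-0 share its 2 libraries, and those with dd-2 share the dd-2 libraries.

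The sum of both single-mutant differences fell short of the dd-2 difference for each of the 7 abundant genes, with the shortfall (the fitted interaction) from 0.17 ± 0.20 for JAL33 to 0.39 ± 0.12 for JAL34. For PBP1 the sum was 0.16 and the dd-2 difference 0.45. For JAL22 they were 0.70 and 0.96, a shortfall of 0.26 ± 0.20. The sign was the same in all 7 with every library kept, and for JAL33 the interaction was smaller than its SE. Without dd-2 replicate 1 it was -0.04 for JAL33 and 0.07 for JAL22, so the sign in JAL33 rests on that library. NSP4 went the other way, with -0.32 ± 0.37. Over all 19017 genes tested the interaction was above 0 for 56.7%, with a median of 0.03. The dd-2 levels, which enter the interaction, were known when the genes were chosen, so nothing is read from the shared sign.

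**Figure D3:**
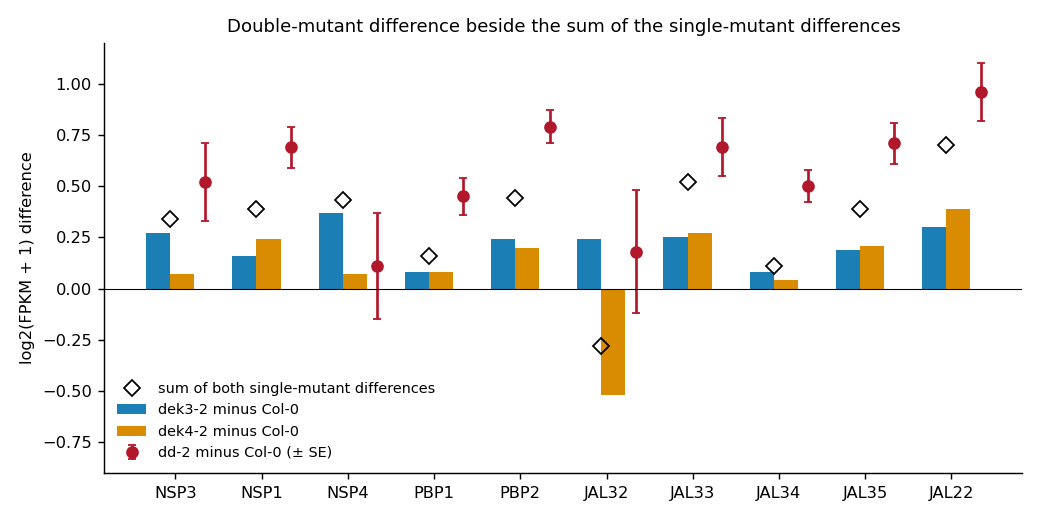
Difference from Col-0 in log2(FPKM + 1) (y axis) for each lectin gene (x axis): bars for dek3-2 and dek4-2, open diamonds for the sum of those bars, and red circles with SE for dd-2. The circle lies above the diamond for all genes but NSP4, for example 0.50 against 0.11 for JAL34.

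The abundant genes varied together over the 8 libraries. The Pearson r of log2(FPKM + 1) between them ran from 0.85 to 0.98, with a median of 0.94 over 21 pairs. Between the low genes it was 0.62 to 0.65 over 3 pairs, and between an abundant and a low gene it ran from -0.19 to 0.78. These points share libraries and depth, and the difference between dd-2 and the rest enters each r. Within dd-2, replicate 1 was the higher library for 7 of the 7 abundant genes. The same held for 3 of 7 in Col-0, 5 of 7 in dek3-2 and 1 of 7 in dek4-2. The share of all genes higher in replicate 1 was not taken and the 7 genes vary together, so nothing is read from these counts. Of the low genes, NSP3, NSP4 and JAL32 were all higher in dd-2 replicate 2, the library of lower depth that also held seed transcripts.

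The pattern most like that of the lectins was sought among the other 19007 genes tested, as the Pearson r over 8 libraries with the mean of the standardised lectin values. The closest were AT4G37608, an uncharacterised protein (0.982), BGLU15, a beta-glucosidase (0.982), GH3.17, of the auxin-conjugating GH3 family (0.981), SUGTL4, of the major facilitator transporters (0.979), and AT5G39520, a protein of unknown function (0.979). AT5G39520 stood at 9.07 and 8.99 FPKM in Col-0, 12.97 and 12.3 in dek3-2, 11.5 and 12.4 in dek4-2 and 21.0 and 20.7 in dd-2. Its dd-2 libraries were the highest. The 5 were picked for their likeness over these same libraries, so their differences between genotypes are not tested. PYK10 ranked 178 in likeness, with r = 0.919.

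Other genes of the same system were taken as lists. Of 13 genes of the ER body and PYK10 complex 12 were tested, and JAL23, a lectin of the same complex as JAL22, was below the filter at 0.169 to 0.417 FPKM. None was called by limma in dd-2 against Col-0, with 6 at an unadjusted p below 0.05, all higher, and 3529 of the 19017 genes tested were at that level in either direction. The 12 differences were all above 0 with a median of 0.48. Over all genes tested 65.9% lay above 0, with a median of 0.08. PYK10, the beta-glucosidase that PBP1 binds, stood at 914 and 870 FPKM in Col-0, 1034 and 941 in dek3-2, 1003 and 1001 in dek4-2 and 1439 and 1197 in dd-2. Its dd-2 libraries lay above the other 6, and its difference was 0.56 ± 0.11 with a limma adjusted p of 0.0716. The ratio of PBP1 to PYK10 was 0.643 and 0.689 in Col-0, 0.603 and 0.667 in dek3-2, 0.610 and 0.646 in dek4-2 and 0.599 and 0.637 in dd-2. Both dd-2 ratios lay just below both of Col-0, and the single mutants overlapped each of them. The largest differences on this list were those of NAI2, an ER body structural protein (0.74 ± 0.29, limma adjusted p = 0.247), and BGLU22, a beta-glucosidase close to PYK10 (0.64 ± 0.38, limma adjusted p = 0.384). NAI1, the transcription factor on which ER bodies depend, stood at 8.82 and 10.2 FPKM in Col-0 and 11.2 and 11.9 in dd-2, with a difference of 0.26 ± 0.13 (limma adjusted p = 0.324). In dek3-2 against Col-0 none of the 12 was called (1 at an unadjusted p below 0.05, limma), nor in dek4-2 against Col-0 (0 at an unadjusted p below 0.05).

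**Figure D4:**
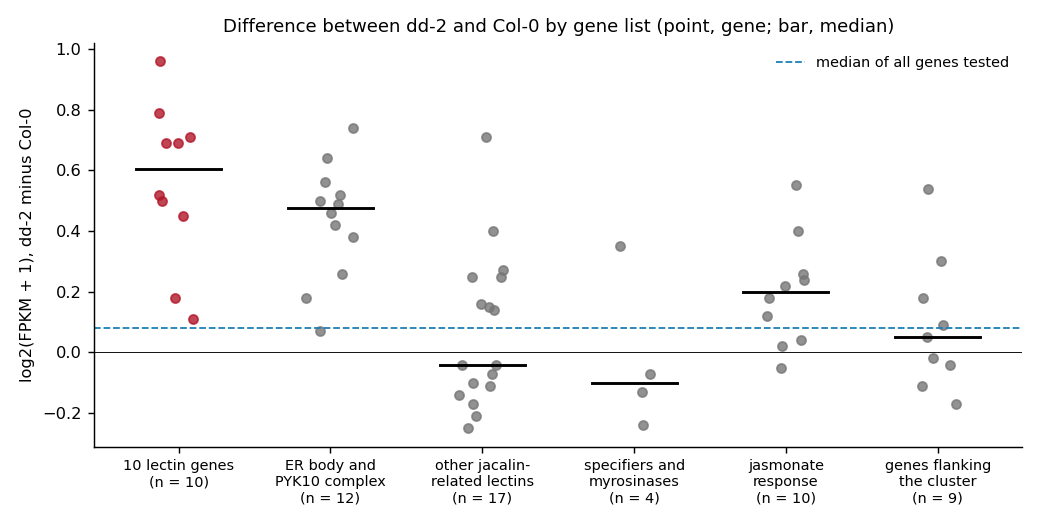
Difference of dd-2 from Col-0 in log2(FPKM + 1) (y axis) for each tested gene of 6 lists (x axis); points are genes, black bars list medians, and the dashed line the median of all genes tested, 0.08. The median is 0.60 for the 10 lectin genes, which were chosen on these values, 0.48 for the ER body list and -0.04 for the other jacalin-related lectins.

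Of 37 other genes whose reference product names jacalin or mannose-binding lectin, 17 were tested. Genes of the family with another product name are not on this list. None was called in dd-2 against Col-0 by limma (1 at an unadjusted p below 0.05, higher). The differences of the 17 tested genes had a median of -0.04, with 8 of 17 above 0 (65.9% of all genes tested). The most abundant was AT1G52100, at 69.6 and 59.4 FPKM in Col-0 and 52.8 and 58.2 in dd-2. Its dd-2 libraries lay below those of Col-0, with a difference of -0.21 ± 0.09 (limma adjusted p = 0.271). JAL4 stood at 26.1 and 20.3 FPKM in Col-0 and 43.7 and 33.7 in dd-2, with the largest difference on this list (0.71 ± 0.22, limma adjusted p = 0.173). JAL3 stood at 20.4 and 24.0 FPKM in Col-0 and 27.6 and 25.5 in dd-2, at 0.25 ± 0.21 (limma adjusted p = 0.534). JAL48, a low gene, had a difference of 0.40 ± 0.22 (limma adjusted p = 0.342).

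Of 6 other specifier, specifier-modifying and myrosinase genes 4 were tested and none was called in dd-2 against Col-0 by limma (1 at an unadjusted p below 0.05). That was NSP5, a nitrile-specifier protein without a jacalin domain, at 212 and 229 FPKM in Col-0, 235 and 225 in dek3-2, 269.8 and 273 in dek4-2 and 294 and 269.0 in dd-2. Its dek4-2 and dd-2 libraries overlapped each other and lay above the rest, with differences from Col-0 of 0.35 ± 0.08 in dd-2 (limma adjusted p = 0.105) and 0.30 ± 0.08 in dek4-2 (limma adjusted p = 1). The myrosinase TGG2 had -0.24 ± 0.19 in dd-2 (limma adjusted p = 0.514). Of 10 jasmonate-response genes, examined because JAL35 is known as one, none was called in dd-2 against Col-0 by limma (2 at an unadjusted p below 0.05). Over all 19017 genes tested 3529 were at that level in either direction. Of the 10 differences 9 lay above 0 (65.9% of all genes tested), with a median of 0.20 (0.08 over all genes tested). The largest differences were those of PDF1.2, a defensin (0.55 ± 0.34, limma adjusted p = 0.407), and LOX2, a lipoxygenase (0.40 ± 0.38, limma adjusted p = 0.598).

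The genes flanking the cluster, 5 a side, were examined as its neighbours. Of these 9 were tested and none was called in dd-2 against Col-0 by limma, with 2 on the lower side and 1 on the upper side at an unadjusted p below 0.05. The medians were 0.18 on the lower side and -0.02 on the upper side, with 0.08 over all genes tested. ABCG29, a transporter, had 0.54 ± 0.16 (limma adjusted p = 0.156), APG 0.30 ± 0.12 (0.233, limma adjusted p) and AT3G16350 -0.17 ± 0.11 (0.441, limma adjusted p). AHP4, of the phosphotransfer proteins, lay at 0.05 ± 0.18 (limma adjusted p = 0.887), and PAB6 was below the filter. On the other side MPPA2 lay at -0.02 ± 0.09, IQD26 at 0.09 ± 0.17, IAA26 at 0.18 ± 0.08, AT3G16510 at -0.11 ± 0.11 and UGT88A1 at -0.04 ± 0.06, with limma adjusted p of 0.259 to 0.895.

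Over these 4 lists and the flanks 52 genes were tested, and limma called none in any of the 7 comparisons. At an unadjusted p below 0.05, 13 were higher in dd-2 against Col-0, 5 in dek3-2 and 2 in dek4-2 against Col-0, with none lower. Over all 19017 genes 3529, 655 and 374 were at that level in either direction. The lowest limma adjusted p of these in dek3-2 was that of CORI3, a jasmonate-response gene, at 0.0954 with a difference of 0.73, and in dd-2 it lay at 0.18 (limma adjusted p = 0.322).

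Markers of other cell types moved in part with these levels. The summed FPKM of 7 root endodermis genes was 26.8 and 16.6 in Col-0, 20.6 and 25.7 in dek3-2, 21.7 and 18.6 in dek4-2 and 37.5 and 34.9 in dd-2. Both dd-2 sums were the highest. All 6 of the genes tested lay above 0 in dd-2 against Col-0 (65.9% of all genes tested), with a median of 0.59. None was called by limma (4 at an unadjusted p below 0.05, lowest limma adjusted p = 0.0612). The sum of 5 root hair genes was 40.1 and 18.3 FPKM in Col-0, 33.6 and 42.7 in dek3-2, 21.8 and 14.3 in dek4-2 and 40.5 and 46.2 in dd-2. It was low in both dek4-2 libraries and in Col-0 replicate 2. Of the 4 genes tested 4 lay above 0 in dd-2 against Col-0 (65.9% of all genes tested), with a median of 0.43. In dek4-2 against Col-0 it was 0 of 4 (51.1% of all genes tested), with a median of -0.48. None was called by limma in either comparison, and none was at an unadjusted p below 0.05. A link between this sum and JAL32, which rested on about 27 to 92 fragments a library, was not tested. PRP3 alone held 26.8 of the 40.1 FPKM in Col-0 replicate 1. The sum of 7 green leaf genes ran from 18634 to 22856 FPKM in the 6 libraries outside dd-2 and was 17242 and 16550 FPKM in dd-2. The sum followed RBCS1A and RCA (-0.37 and -0.46 in dd-2 against Col-0). Of the 7 genes 4 lay above 0 (65.9% of all genes tested), with a list median of 0.09, CAB3 at 0.52 and LHCB2.2 at 0.80. None of the 7 was called by limma (4 at an unadjusted p below 0.05, of which 2 were higher and 2 lower). No marker gene was at 0 in any library, and the part of root, leaf or seed RNA in the lectin levels was not tested.

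Without dek3-2 replicate 1 and dd-2 replicate 2, which held the most seed transcripts, dek3-2 and dd-2 were left with 1 library each. The dek3-2 library kept, replicate 2, still had a seed sum of 19.7 FPKM, against 2.84 to 8.07 in the others kept. The median of the 10 genes was then 0.66 in dd-2 against Col-0, 0.18 in dek3-2 against Col-0, 0.53 in dd-2 against dek3-2, 0.52 in dd-2 against dek4-2 and 0.41 in the interaction. For each abundant gene both dd-2 libraries lay above both of Col-0, so dd-2 stayed higher whichever library was left out. The dd-2 library kept was the higher of the pair for all 7, so the differences from Col-0 could only rise. The differences were 1.16 for JAL22, 0.91 for JAL33, 0.85 for PBP2, 0.80 for JAL35, 0.79 for NSP1, 0.54 for PBP1 and 0.54 for JAL34. The low genes changed more, to 0.30 for NSP3, -0.29 for NSP4 and -0.14 for JAL32, so the sign turned for NSP4 and JAL32. The dek3-2 differences of the abundant genes ran from 0.05 for NSP1 to 0.28 for PBP2, with JAL22 at 0.18, and their interactions from 0.37 for PBP1 and PBP2 to 0.58 for JAL22. Among the low genes the interaction was -0.01 for NSP3, -0.68 for NSP4 and -0.16 for JAL32.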

How the data were processed

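The libraries came from a directional kit, and per the submitters' processing notes the tools were HISAT2, featureCounts and edgeR, with TAIR10 as build and no versions or roles. Each library has 1 deposited table of FPKM values for 33557 genes, the unit being taken per the file headers. The program that wrote the FPKM, any added scaling between libraries and the use of strand in counting are not given in the sources used here. The files hold no counts. Of the low values 99.6 to 99.9% fell within 0.15 of a whole number of fragments once scaled by length, which gave the depths and fragment numbers quoted, and these cover counting error only. File starts count from 0 (12797 equal the RefSeq start after adding 1, 135 as printed), so 1 was added.

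FPKM were used as deposited, as log2(FPKM + 1), which understates changes of low genes. One limma 3.58.1 model (R 4.3.3, variance trend, robust estimation) held all 8 libraries with 1 mean a genotype, without a replicate block, for the 19017 genes that averaged 1 FPKM or more. Calls needed an adjusted p (Benjamini-Hochberg) below 0.05. The model was tested on simulated data. The interaction subtracts the effect of dek4-2 in wild type from its effect in the dek3-2 background. The 10 genes, the lists and the tests were chosen with earlier results of these data known.

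All 10 lectin genes were named. Also named were called genes and the 2 largest dd-2 differences of each other list, the 3 most abundant other jacalin-related lectins, the 5 genes on either side of the cluster and the 5 genes of the most similar pattern. PYK10, NAI1, JAL23, NSP5, CORI3, OPR3 and JAL44 were added after their values were seen. Genes were matched by locus code to RefSeq (TAIR10.1), 32813 of 33557. Sequences, coding identity (Biopython 1.88, in place of the planned protein identity) and promoter windows come from RefSeq. Alternatives were median-of-ratios scaling, a pseudocount of 0.1, no filter, the compared genotypes alone, the replicate number as a block, no organelle genes, limma without variance trend or robust estimation, removal of length and GC trends (splines of 5 degrees of freedom), 1 library left out at a time and summed gene pairs of at least 80% identity. Leaving out both libraries with seed transcripts was added after seeing the data. Plots used matplotlib 3.10.9 (Python 3.11.15).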

Additional observations from a re-analysis of the deposited data

Results flagged for a closer look

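A few list genes outside the 10 lectins moved in opposite directions under the same allele in different backgrounds, in every library of each genotype, and these are given as log2(FPKM + 1) differences. OPR3, a jasmonate synthesis enzyme, was at 0.15 for dek4-2 minus Col-0 and at -0.13 for dd-2 minus dek3-2. CORI3 was at 0.27 for dek4-2 minus Col-0 and at -0.55 for dd-2 minus dek3-2, and for the DEK3 allele at 0.73 for dek3-2 minus Col-0 and at -0.09 for dd-2 minus dek4-2. JAL44, a low lectin gene of another locus, was at -0.18 for dek4-2 minus Col-0 and at 0.16 for dd-2 minus dek3-2. The difference between backgrounds was tested as the interaction in limma over all genes, and none passed, with adjusted p of 1 for OPR3, 0.489 for CORI3 and 1 for JAL44. None of the 10 lectin genes showed this pattern.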

How the results depend on the processing

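The medians of the 10 lectin genes moved by less than the spread between replicates under every alternative, in all 7 comparisons. Of 1250 values of single lectin genes over 22 settings, 1130 stayed within that spread, 120 moved further and 0 called values changed sign. Dropping the filter, fitting the compared genotypes alone, the replicate block and leaving out variance trend or robust estimation cannot change a fitted difference. Nor can leaving out a library of a genotype outside the comparison. Part of these counts was thus fixed in advance, and nothing is read from them. The uncalled dd-2 minus Col-0 difference ran from -0.29 to 0.52 for NSP4 and from -0.16 to 0.51 for JAL32.

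The count of lectin genes called in dd-2 against Col-0 (4) was 1 with median-of-ratios scaling, without the filter, without variance trend or robust estimation and with length and GC trends removed, each time PBP2. It was 0 with the compared genotypes alone and without both libraries with seed transcripts, and 0 to 1 with 1 library left out. All genes called in dd-2 against Col-0 (48) numbered 26 without the filter, 16 with the compared genotypes alone, 23 without variance trend or robust estimation, 15 without both seed-transcript libraries and 10 to 35 with 1 library left out. They split into 27 higher and 21 lower, against 19 and 30 after scaling by median of ratios, 37 and 15 once organelle genes were dropped and 15 and 26 with trends removed. The median of all genes was 0.079, 0.005, 0.10 and -0.005 in these fits. In dd-2 against dek3-2 (5) all genes called numbered 3 with median-of-ratios scaling, 10 without the filter, 3 with the compared genotypes alone, 3 without organelle genes, 1 without variance trend, 2 with trends removed, 14 without the seed-transcript libraries and 5 to 11 with 1 library left out. In dd-2 against dek4-2 (8) they numbered 5 without variance trend and 4 to 10 with 1 library left out. In dek3-2 against Col-0 (8) they numbered 14 without the filter, 5 with trends removed, 14 without the seed-transcript libraries and 7 to 16 with 1 library left out. In dek4-2 against Col-0 (4) they numbered 2 with trends removed and 3 to 10 with 1 library left out. In dek4-2 against dek3-2 (5) they numbered 3 with trends removed, 11 without the seed-transcript libraries and 5 to 13 with 1 library left out, and 0 to 1 genes of the other lists were then called, PDF1.2 without dek4-2 replicate 1. In the interaction (3) they numbered 8 without the filter, 1 without organelle genes, 0 with trends removed, 12 without the seed-transcript libraries and 6 to 11 with 1 library left out. The causes were not tested, and where 1 library was left out the lone library of that genotype is assumed to vary like the others.

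The labels give all genotypes the replicate numbers 1 and 2 and do not say what they share. The deviations of same-numbered libraries correlated across genes at -0.0651 to 0.230, above 0.1 in 1 of 6 pairs of genotypes, so no pairing was assumed, although the chloroplast share split by number in all 4 genotypes. With the replicate number as a block, limma called 7 lectin genes in dd-2 against Col-0, 305 genes in all (210 higher, 95 lower) and 3 genes of the other lists (JAL4, GLL25 and PYK10). The block gave 74 genes in dd-2 against dek3-2, with 1 of the other lists (JAL4), 13 in dd-2 against dek4-2 and 5 in the interaction.

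Depth limits NSP3, NSP4 and JAL32 most, at about 41 to 86, 89 to 219 and 27 to 92 fragments a library. With 2 libraries a genotype no difference has a firm error of its own.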
